A study of Homo sapiens with 6 samples.

Results

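The genes that build cholesterol and fatty acids were followed by RNA-seq in THP-1 cells, a long-established leukaemic line of human origin that stands in for monocytes, across 6 libraries. Cells had been given recombinant human interleukin-6 (IL-6), an inflammatory cytokine, for 6, 24 or 48 h, or were controls collected at the same times. Each of the 6 combinations of agent and time had 1 library, and the labels do not say what the controls received. The study addressed how IL-6 alters gene expression in these cells, within work on lung monocytes bearing the receptor of IL-6 in patients with chronic obstructive pulmonary disease. The 32 genes were taken by name: enzymes of the pathway from acetyl-CoA to cholesterol, the regulators of the SREBP transcription factors, STARD4 and LPIN1 as further sterol-regulated genes, and enzymes that make, desaturate and elongate fatty acids. Of the 60325 gene rows in the tables, 17388 had a value in all 6 libraries and 13558 of these passed the filter on low values and were tested. All but 1 of the 32 genes had 6 values, and all 31 of those were tested. The exception was ELOVL6, a fatty acid elongase, which was listed in the control library of 48 h alone and is not described further.

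Cholesterol is built from acetyl-CoA through mevalonate, farnesyl diphosphate, squalene and lanosterol, and fatty acids are built from the same precursor by carboxylation and chain extension. Transcription of most of these enzymes is driven by the SREBP factors, membrane-bound precursors that SCAP escorts to the Golgi for cleavage when sterols are low and that the INSIG proteins hold back in the endoplasmic reticulum when sterols are plentiful. In monocytes and macrophages the pathway supplies membrane lipid, and its output is known to change with growth, sterol supply and inflammatory activation.

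The values are log2 values that the authors centred on each gene, so that the mean over the 6 libraries is 0. They compare libraries within a gene and say nothing of the level of one gene against another. The number of genes with a listed value ran between 22209 and 22733 in the IL-6 libraries and between 22000 and 23108 in the control libraries. The read depth is unknown. All 12 monocytic markers had a value in every library, while CD3E, CD2, MS4A1, KRT19, CDH1, COL1A2 and HBB had none in any library. The IL-6 effect over the 3 time-matched pairs was 2.67 ± 0.18 for PIM1 (limma adjusted p = 0.000294) and 2.48 ± 0.15 for BCL3 (limma adjusted p = 0.000185), both known targets of IL-6 signalling. For the other genes of this list it was 0.78 ± 0.12 for STAT3, the factor that carries the IL-6 signal (limma adjusted p = 0.0284), and 2.54 ± 0.48 for SOCS3, its feedback inhibitor, which was not called (limma adjusted p = 0.135). Here and below, ± gives the standard error of the model.

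The genes of lipid synthesis moved with culture time in both arms. After 24 h, 22 of the 31 rose relative to 6 h and none fell (limma adjusted p under 0.05), against 1.47% of all 13558 genes called higher and 0.251% called lower. Their median change was 0.99 on the log2 scale, beside 0.11 over all genes tested. The largest rises were those of FADS2, a fatty acid desaturase (3.28-fold), MVK, the mevalonate kinase (3.08-fold), HMGCS1, the synthase that makes HMG-CoA (2.96-fold), and LSS, which closes the sterol rings (2.91-fold). In bulk RNA, a change in the cells that express a gene cannot be told apart from a change in its RNA per cell.

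The same shape recurred within each arm. In both arms, 24 of the 31 genes were highest at 24 h and lowest at 6 h, a course taken by 6.53% of all genes tested. The 7 others were ACACA, INSIG2, LPIN1, PMVK, SCAP, SREBF1 and SREBF2. Both 24 h libraries stood above both 6 h libraries for 27 of the 31 genes, against 31.3% of all genes. Taken alone, the IL-6 arm was highest at 24 h for 26 genes (32.5% of all genes) and the control arm for 28 (43.2% of all). The gain at 24 h over 6 h reached 1.5-fold for 25 genes with IL-6 and 24 in controls, against 16.1% and 18.7% of all genes. The median difference between 24 h and 6 h was 1.24 in the IL-6 arm and 0.96 in the control arm, beside 0.06 and 0.15 over all genes.

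**Figure D1:**
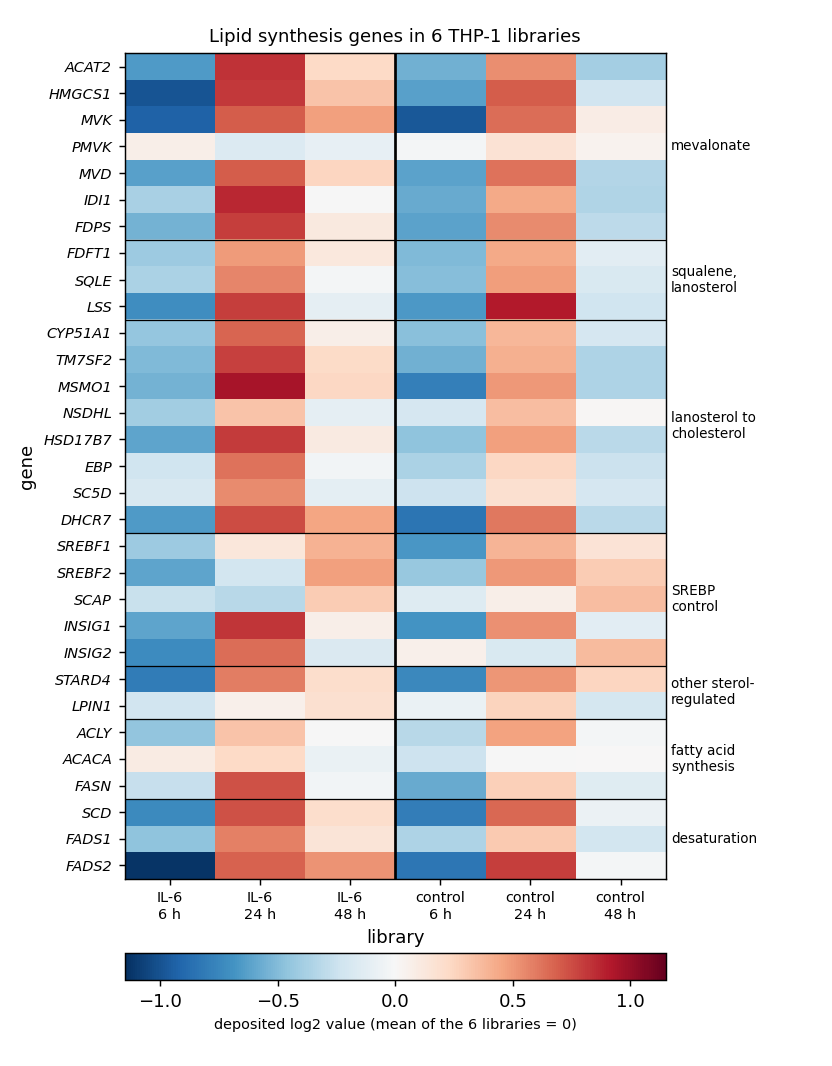
Deposited log2 values of the 31 genes (rows, grouped by pathway step) in the 6 libraries (columns), with the IL-6 libraries on the left and the control libraries on the right; red is above and blue below the gene's own mean. The 24 h column is the reddest in each arm for 24 genes, and the rows of SCAP, SREBF2, PMVK and ACACA do not share that course.

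The number of calls at 24 h depended on how the variance was estimated and on single libraries, while the fitted changes of the 22 genes lay between 0.62 (EBP) and 1.97 (FADS2) over the 6 fits that left out 1 library. When variances were shrunk to 1 common value in place of a trend on level, limma called 0 of the 31 genes. It then called 0 of all 13558, with the same fitted changes. In the main fit, 14 of the 31 genes had no recovered level and entered that trend at its highest level. All 14 were among the 22 called. The count was 13 without the IL-6 library of 6 h, 6 without the IL-6 library of 24 h and 5 without the control library of 24 h, and INSIG1, LSS, MSMO1 and SCD were called in all 6 fits without 1 library.

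**Figure D2:**
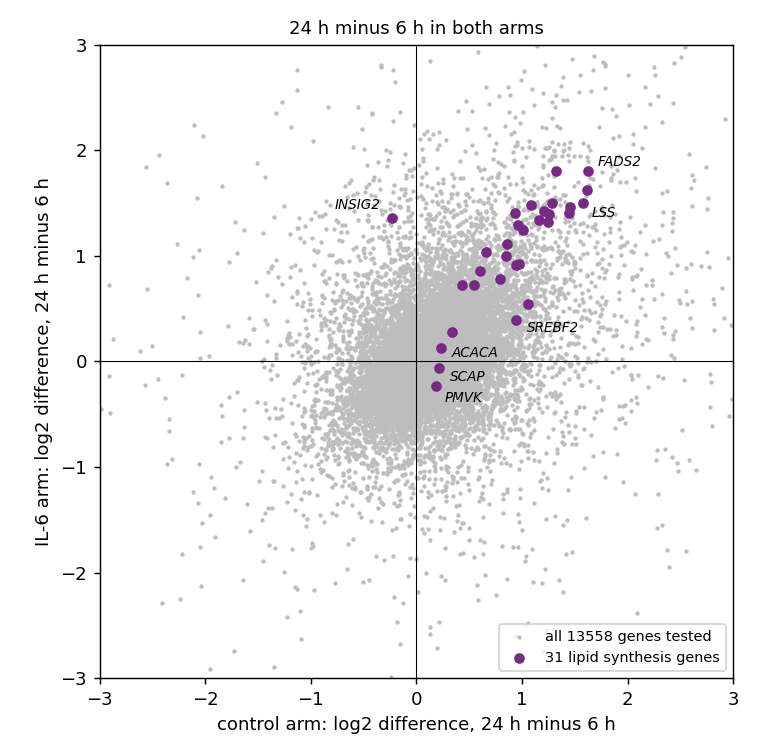
Difference between 24 h and 6 h for each gene tested (grey) and for the 31 lipid synthesis genes (purple), in the control arm on the horizontal axis and the IL-6 arm on the vertical axis, both as log2 differences between 2 libraries. Most purple points lie in the upper right, with PMVK, SCAP and ACACA near the origin and INSIG2 high in the IL-6 arm alone; 121 genes with a difference beyond 3 in size are outside the axes.

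By 48 h part of the rise was gone. Relative to 6 h, 9 of the 31 genes were called higher and none lower, against 2.4% and 1.3% of all genes, and the median change was 0.47 beside 0.07 over all genes. The 9 were MVK, MSMO1, DHCR7, SREBF1, SREBF2, INSIG1, STARD4, SCD and FADS2, of which SREBF1 and SREBF2 were not called at 24 h. Relative to 24 h, IDI1, FDPS, LSS and MSMO1 fell at 48 h and none of the 31 rose, against 0.443% of all genes called lower and 0.0959% called higher. The median change from 24 h was -0.57, beside -0.03 over all genes. A loss of at least 1.5-fold between 24 h and 48 h was seen in 12 genes with IL-6 and 14 in controls, against 13.8% and 9.99% of all genes.

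Both counts at 48 h moved with the fit. Against 6 h the count was 0 without the IL-6 library of 6 h, 1 without the IL-6 library of 48 h, 4 without the control library of 6 h and 3 with no level filter or with non-robust shrinkage. Against 24 h it was 0 without either library of 24 h and 7 without the IL-6 library of 48 h, and with no variance trend it was 0 in both comparisons.

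The sequence before the start sites of these genes was read from RefSeq (GRCh38.p14). Each window ran from 250 bases before to 50 bases after the start. A window was matched for 28 of the 32 genes, and none for ACAT2, FDFT1, SQLE and FASN. The pentamer CCAAT, the box bound by the factor NF-Y, a known partner of the SREBPs, was searched on both strands. It occurred in 14 of the 18 windows of genes that rose at 24 h (77.8%), in 3 of the 9 windows of the other genes tested (33.3%) and in 34.6% of all 35116 windows. At least 2 copies were present in 11 of those 18 windows, in 1 of those 9 and in 10.8% of all windows. The share over all windows is of an unlike set. It counts several windows for some genes and is not limited to the genes tested. The 4 risers without the box were CYP51A1, DHCR7, FADS1 and FADS2. These genes were taken by name for the pathway, and any link between the box and the time course was not tested. Where a gene had several windows, the one nearest to its start in the files' annotation was read. The windows of DHCR7, FADS1 and FADS2 still lay 3825, 12315 and 23223 bases downstream of that start, inside the annotated gene, as did those of ACLY and SCAP by 11520 and 1185 bases.

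Stretches of 6 windows are shown, 5′ to 3′ on the gene's strand and ending before any annotated protein-coding exon, with CCAAT or its reverse complement ATTGG in capitals. MSMO1, MVD, STARD4 and INSIG1 rose at 24 h. SREBF2, which was not called at 24 h, is shown for a match to the sterol regulatory element, the SREBP binding motif, also in capitals, and INSIG2, which was not called either, has neither motif in its window.
MSMO1: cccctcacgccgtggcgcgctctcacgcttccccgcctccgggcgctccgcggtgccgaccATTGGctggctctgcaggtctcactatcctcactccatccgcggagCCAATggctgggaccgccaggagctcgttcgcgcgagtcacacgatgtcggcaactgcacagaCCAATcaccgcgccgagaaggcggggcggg
MVD: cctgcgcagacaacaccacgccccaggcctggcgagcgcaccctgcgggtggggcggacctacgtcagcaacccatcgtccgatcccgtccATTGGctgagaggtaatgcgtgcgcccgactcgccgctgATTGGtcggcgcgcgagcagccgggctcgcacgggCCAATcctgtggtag
STARD4: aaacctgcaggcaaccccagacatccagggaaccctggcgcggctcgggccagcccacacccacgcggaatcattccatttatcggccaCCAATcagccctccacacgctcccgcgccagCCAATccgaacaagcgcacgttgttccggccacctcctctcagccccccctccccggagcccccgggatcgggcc
INSIG1: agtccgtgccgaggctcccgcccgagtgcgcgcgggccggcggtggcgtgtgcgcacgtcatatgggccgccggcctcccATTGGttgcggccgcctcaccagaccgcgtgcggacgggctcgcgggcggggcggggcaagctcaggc
SREBF2: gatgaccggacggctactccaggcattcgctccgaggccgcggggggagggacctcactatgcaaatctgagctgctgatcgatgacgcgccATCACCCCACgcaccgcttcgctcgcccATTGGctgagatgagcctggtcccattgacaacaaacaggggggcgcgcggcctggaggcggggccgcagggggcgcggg
INSIG2: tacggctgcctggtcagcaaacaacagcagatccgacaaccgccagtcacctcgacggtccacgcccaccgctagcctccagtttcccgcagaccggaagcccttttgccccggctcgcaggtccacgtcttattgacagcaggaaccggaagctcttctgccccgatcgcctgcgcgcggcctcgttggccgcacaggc
These stretches lie on the plus strand at chr4:165327423-165327622 for MSMO1, chr7:155297628-155297775 for INSIG1, chr22:41832879-41833078 for SREBF2 and chr2:118088252-118088451 for INSIG2, and on the minus strand at chr16:88663162-88663341 for MVD and chr5:111512591-111512785 for STARD4. MSMO1 and MVD each show 3 boxes within their stretch, STARD4 shows 2, and INSIG1 and SREBF2 show 1 each.

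The sterol regulatory element was searched on both strands as ATCAC and CCAC parted by 1 free base, and in no other form. SREBF2 alone of the 28 windows held this form, against 0.154% of all windows. The lack of a match does not show that a window lacks the element. GGGCGG, the box bound by Sp1-type factors, was in 24 of the 28 windows and in 45.0% of all windows. It was in 16 of the 18 windows of genes that rose at 24 h (88.9%). Among the 9 windows of the other genes tested it was in 7 (77.8%). CACGTG, the E box, was in 4 of the 28 windows and in 7.26% of all. It was in 2 of those 18 windows (11.1%) and in 2 of those 9 (22.2%). In these windows no match of one motif overlapped a match of another, while 6 pairs of matches of the same motif overlapped. A match records the letters in the window and not a bound site.

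In the mevalonate segment, 6 of 7 genes rose at 24 h. HMGCS1 had values of -0.99, 0.81 and 0.33 at 6, 24 and 48 h with IL-6, against -0.63, 0.70 and -0.22 in controls, and it rose by 1.56 ± 0.21 at 24 h (limma adjusted p = 0.00724). MVK had -0.93, 0.70 and 0.47 with IL-6 against -0.97, 0.65 and 0.08 in controls at the same times. Its rise was 1.62 ± 0.26 at 24 h (limma adjusted p = 0.0147) and 1.23 ± 0.26 at 48 h (limma adjusted p = 0.0327). Both 6 h libraries were the lowest for HMGCS1 and for MVK, and neither gene's 24 h values overlapped its 6 h values. The rises of ACAT2, the thiolase of the first step, MVD, the diphosphomevalonate decarboxylase, and FDPS, the farnesyl diphosphate synthase, were 1.28, 1.28 and 1.25 on the log2 scale.

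IDI1, the isopentenyl diphosphate isomerase, had -0.38, 0.87 and 0.00 with IL-6 and -0.58, 0.43 and -0.34 in controls. It rose by 1.13 ± 0.13 at 24 h (limma adjusted p = 0.0038) and fell again by 48 h, with a change of -0.82 ± 0.13 from 24 h (limma adjusted p = 0.0282). FDPS changed by -0.77 ± 0.14 at 48 h over 24 h (limma adjusted p = 0.0438). PMVK, the phosphomevalonate kinase, was the member of this segment that did not follow. Its values were 0.07, -0.16 and -0.10 with IL-6 and -0.02, 0.16 and 0.04 in controls, with 24 h values on both sides of the 6 h values, and a change of -0.02 ± 0.14 at 24 h (limma adjusted p = 0.953).

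All 3 genes from farnesyl diphosphate to lanosterol rose at 24 h. LSS, the lanosterol synthase, had -0.71, 0.79 and -0.11 with IL-6 and -0.66, 0.92 and -0.23 in controls. Its change was 1.54 ± 0.15 at 24 h over 6 h (limma adjusted p = 0.00195) and -1.02 ± 0.15 at 48 h over 24 h (limma adjusted p = 0.0256). In both arms LSS was again below its own mean at 48 h, and its 24 h libraries stood above the other 4. FDFT1, the squalene synthase, had -0.42, 0.49 and 0.12 with IL-6 and -0.51, 0.43 and -0.12 in controls, a rise of 0.93 ± 0.13 at 24 h (limma adjusted p = 0.00742). SQLE, the squalene epoxidase and a known control point of the pathway, rose by 0.95 ± 0.12 (limma adjusted p = 0.00702).

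Between lanosterol and cholesterol, 6 of 8 genes rose at 24 h. MSMO1, the methylsterol monooxygenase, had -0.55, 0.95 and 0.24 with IL-6 and -0.79, 0.50 and -0.35 in controls, and rose by 1.39 ± 0.14 (limma adjusted p = 0.00195). Its IL-6 value was above the control value at each time, and the 24 h libraries were the highest in each arm. DHCR7, the reductase of the last step to cholesterol, had -0.65, 0.75 and 0.45 with IL-6 and -0.84, 0.61 and -0.31 in controls. It rose by 1.42 ± 0.17 at 24 h (limma adjusted p = 0.00443) and by 0.81 ± 0.17 at 48 h relative to 6 h (limma adjusted p = 0.0295). At 48 h the IL-6 library kept most of the rise of DHCR7, while the control library lay nearer to its 6 h value.

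The rises of CYP51A1, the lanosterol demethylase, TM7SF2, a sterol reductase, HSD17B7, a ketosterol reductase, and EBP, a sterol isomerase, were 0.99, 1.12, 1.17 and 0.73 on the log2 scale. NSDHL, a sterol dehydrogenase, had -0.40, 0.32 and -0.10 with IL-6 and -0.19, 0.36 and 0.01 in controls, a change of 0.64 ± 0.14 (limma adjusted p = 0.0564). SC5D, a sterol desaturase, changed by 0.58 ± 0.14 (limma adjusted p = 0.0818). Both were highest at 24 h in each arm but missed the threshold.

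Of the 5 genes that control SREBP activity, INSIG1 rose at 24 h and the other 4 did not pass the test. INSIG1, a sterol-sensitive brake that is itself a known SREBP target, had -0.60, 0.82 and 0.06 with IL-6 and -0.68, 0.53 and -0.12 in controls, and rose by 1.32 ± 0.13 (limma adjusted p = 0.00195). Its course was that of the enzymes, with both 24 h libraries above the other 4. INSIG2, its paralogue, had -0.72, 0.64 and -0.17 with IL-6 and 0.05, -0.17 and 0.36 in controls. The 2 arms of INSIG2 ran in opposite ways, highest at 24 h with IL-6 and lowest at 24 h in controls, and its change at 24 h was 0.57 ± 0.38 (limma adjusted p = 0.503).

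SREBF2, which encodes the SREBP that mainly serves cholesterol synthesis, had -0.61, -0.21 and 0.47 with IL-6 and -0.44, 0.50 and 0.29 in controls. It changed by 0.67 ± 0.20 at 24 h (limma adjusted p = 0.127) and rose by 0.90 ± 0.20 at 48 h relative to 6 h (limma adjusted p = 0.042). The IL-6 arm reached its highest SREBF2 value at 48 h and the control arm at 24 h. SREBF1, which encodes the SREBP that mainly serves fatty acid synthesis, had -0.41, 0.13 and 0.40 with IL-6 and -0.67, 0.39 and 0.16 in controls, a change of 0.80 ± 0.19 at 24 h (limma adjusted p = 0.068) and a rise of 0.82 ± 0.19 at 48 h (limma adjusted p = 0.0453). SCAP, the escort protein, had its highest value at 48 h in each arm, 0.29 with IL-6 and 0.36 in the control, and changed by 0.53 ± 0.17 relative to 6 h (limma adjusted p = 0.109).

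STARD4, a carrier that moves sterol between membranes, had -0.81, 0.59 and 0.21 with IL-6 and -0.74, 0.51 and 0.24 in controls. It rose by 1.32 ± 0.17 at 24 h (limma adjusted p = 0.00702) and by 0.999 ± 0.17 at 48 h (limma adjusted p = 0.0157), and the arms lay close together at every time. LPIN1, a phosphatidate phosphatase of glycerolipid synthesis, had -0.22, 0.06 and 0.18 with IL-6 and -0.08, 0.26 and -0.20 in controls, a change of 0.31 ± 0.32 at 24 h (limma adjusted p = 0.668).

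Of the fatty acid synthesis enzymes, ACLY and FASN rose at 24 h and ACACA did not pass the test. FASN, the fatty acid synthase, had -0.27, 0.73 and -0.03 with IL-6 and -0.58, 0.28 and -0.14 in controls, a rise of 0.93 ± 0.17 (limma adjusted p = 0.0298). ACLY, which makes cytosolic acetyl-CoA from citrate, had -0.45, 0.33 and 0.00 with IL-6 and -0.32, 0.47 and -0.03 in controls, a rise of 0.78 ± 0.13 (limma adjusted p = 0.0164). ACACA, the acetyl-CoA carboxylase, had 0.10, 0.22 and -0.08 with IL-6 and -0.24, -0.01 and 0.01 in controls, within a narrower range than the other enzymes of this step.

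All 3 desaturase genes rose at 24 h. SCD, the stearoyl-CoA desaturase, had -0.73, 0.73 and 0.20 with IL-6 and -0.80, 0.66 and -0.06 in controls. Its rise was 1.46 ± 0.14 at 24 h (limma adjusted p = 0.00195) and 0.83 ± 0.14 at 48 h (limma adjusted p = 0.014). The 6 h, 24 h and 48 h pairs of SCD did not overlap one another, which was not particular to SCD. Both 48 h libraries lay below both 24 h libraries for 24 of the 31 genes, against 22.9% of all genes. They lay above both 6 h libraries for 25 of the 31, against 31.4% of all. FADS2 had -1.13, 0.67 and 0.51 with IL-6 and -0.83, 0.80 and -0.03 in controls, and rose by 1.71 ± 0.19 at 24 h (limma adjusted p = 0.00488). FADS1, the partner desaturase, had -0.46, 0.58 and 0.15 with IL-6 and -0.36, 0.30 and -0.21 in controls, and rose by 0.85 ± 0.15 (limma adjusted p = 0.0211). FADS1 (chr11:61799627-61829318) and FADS2 (chr11:61792980-61867354) overlap by 29692 bases on opposite strands in the files' annotation, and FADS2 also overlaps FEN1 by 4259 bases, so reads of these unstranded libraries may be shared among them and their separate values are uncertain.

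**Figure D3:**
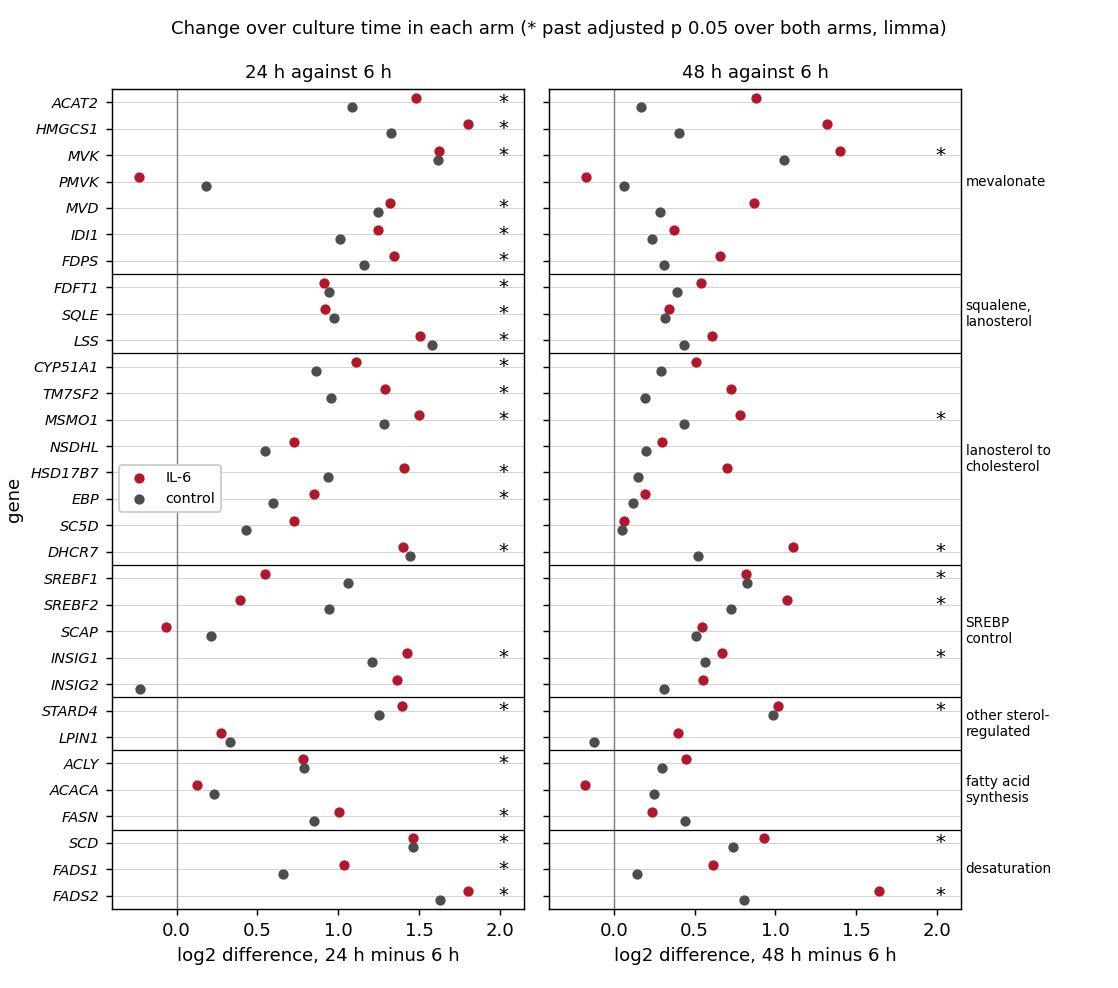
Log2 difference of 24 h (left panel) and 48 h (right panel) from 6 h for each of the 31 genes, in the IL-6 arm (red) and the control arm (grey), 1 library against 1. Stars mark genes past a limma adjusted p of 0.05 over both arms, 22 at 24 h and 9 at 48 h.

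No lipid synthesis gene was called for IL-6 itself. Over the 3 time-matched pairs, limma called 0 of the 31 genes, against 0.229% of all genes called higher and 0.00738% called lower. At an unadjusted p under 0.05, 5 of the 31 were higher and none lower, beside 500 higher and 702 lower among all genes. The IL-6 effect was positive for 23 of the 31 genes, against 44% of all genes. Its median over the 31 was 0.16, beside -0.03 over all genes. The highest effects were 0.43 ± 0.11 for MSMO1 (limma adjusted p = 0.266), 0.36 ± 0.14 for DHCR7 (limma adjusted p = 0.453), 0.33 ± 0.13 for TM7SF2 (limma adjusted p = 0.482) and 0.33 ± 0.10 for IDI1 (limma adjusted p = 0.376), and the lowest was -0.23 ± 0.16 for SREBF2 (limma adjusted p = 0.748).

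The difference between IL-6 and control was read at each time as 1 library against 1, with no test. Its medians over the 31 genes were 0.04, 0.11 and 0.25 at 6, 24 and 48 h, beside 0.02, -0.07 and -0.04 over all genes. The IL-6 library had the higher value for 17 genes at 6 h, for 22 genes at 24 h and for 25 genes at 48 h, against 52.2%, 43.5% and 44.8% of all genes. A margin of at least 1.3-fold above control was reached by 0, 5 and 11 of the 31 genes, against 15.2%, 14.6% and 14.8% of all genes. The same margin below control was reached by INSIG2 at 6 h, by SCAP and SREBF2 at 24 h and by INSIG2 at 48 h, against 15.2%, 23.5% and 17.8% of all genes. At 48 h the widest margins above control were 0.77 for DHCR7, 0.62 for ACAT2 and 0.59 for MSMO1 on the log2 scale. NSDHL and SCAP were below control at all 3 times, and 14 genes were above it at all 3, against 18.2% and 12.5% of all genes.

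By step, the median differences at 6, 24 and 48 h were 0.05, 0.11 and 0.42 over the 7 mevalonate genes. They were 0.09, 0.06 and 0.15 over the 3 genes from squalene to lanosterol. The 8 genes from lanosterol to cholesterol had 0.05, 0.34 and 0.34. The 3 desaturases had -0.10, 0.07 and 0.36, and the 3 fatty acid synthesis genes 0.31, 0.23 and 0.02. The 5 SREBP control genes had -0.10, -0.25 and 0.18, and the 2 other sterol-regulated genes -0.10, -0.06 and 0.17. FASN had its smallest difference at 48 h, with values of 0.31, 0.46 and 0.10 at 6, 24 and 48 h. INSIG2 had differences of -0.78, 0.81 and -0.53, the lowest of all 31 genes at 6 h and 48 h and the highest at 24 h. SREBF2 had -0.17, -0.71 and 0.18, the lowest of the 31 at 24 h.

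**Figure D4:**
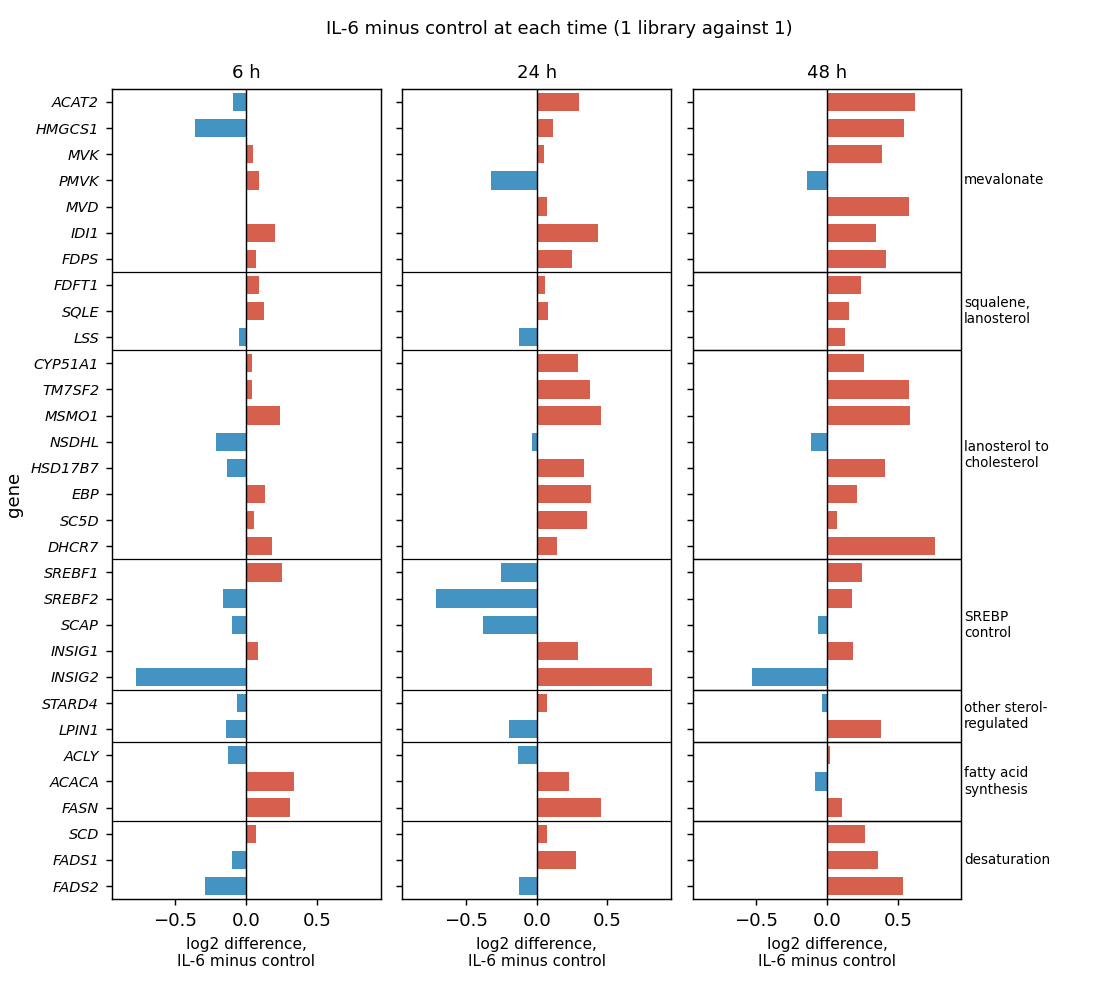
Log2 difference of the IL-6 library from the control library at 6, 24 and 48 h for each of the 31 genes; red bars are above and blue bars below control. The bars point right for 17, 22 and 25 genes, and those of SREBF2 and INSIG2 are the longest in the 24 h panel.

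The retention of the rise at 48 h was compared between the arms. The difference between 48 h and 6 h had a median of 0.61 in the IL-6 arm and 0.31 in the control arm, beside 0.05 and 0.09 over all genes, and it was larger in the IL-6 arm for 27 of the 31 genes, against 45.9% of all. It reached 1.5-fold for 17 genes in the IL-6 arm and 6 in the control arm, against 18.6% and 15.8% of all genes. A test set the effect of IL-6 at 48 h against the mean of its effects at the earlier times. It called 0 of the 31 genes, against 0.0811% of all genes called higher and 0.118% lower. At an unadjusted p under 0.05, 4 of the 31 were higher and none lower, beside 455 higher and 650 lower among all 13558 genes. The highest values among the 31 were 0.75 ± 0.19 for FADS2 (limma adjusted p = 0.282) and 0.67 ± 0.30 for HMGCS1 (limma adjusted p = 0.618). A like test of the effect at 6 h against that of the later times also called 0 of the 31. In each direction 0.118% of all genes were called. At an unadjusted p under 0.05 this test had 0 of the 31, beside 273 higher and 254 lower among all genes.

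Other genes around the pathway were counted by list. Of 11 genes of the isoprenoid branch, which makes dolichol, ubiquinone side chains and prenyl groups, none was called for IL-6 or for time, and the median at 24 h was 0.05. Of 16 genes that process SREBPs, sense sterols or encode NF-Y and Sp1, none was called, and the median at 24 h was 0.10. Of 13 tested genes of sterol uptake, esterification and transport, NPC1 rose at 24 h and VLDLR at 48 h. NPC1, the lysosomal cholesterol exporter, had -0.37, 0.68 and 0.52 with IL-6 and -0.95, 0.44 and -0.31 in controls, a rise of 1.22 ± 0.23 (limma adjusted p = 0.0304). VLDLR, a lipoprotein receptor, rose by 0.87 ± 0.15 relative to 6 h (limma adjusted p = 0.0187).

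Of 22 tested genes of fatty acid activation, further elongation and glycerolipid synthesis, none was called. ACSS2, which makes acetyl-CoA from acetate, had -1.07, 0.97 and 0.54 with IL-6 and -0.61, 0.65 and -0.49 in controls, a change of 1.65 ± 0.34 at 24 h (limma adjusted p = 0.0946). Its values followed the order of the synthesis enzymes, highest at 24 h and lowest at 6 h in both arms. The largest IL-6 effect of each list, in absolute size, was -0.50 ± 0.21 for PGGT1B, -0.22 ± 0.18 for ERLIN2, 0.55 ± 0.18 for NPC1 and -0.995 ± 0.27 for LPIN3, none of them called.

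Other measures also moved with time. Of the 12 monocytic markers, LYZ, the lysozyme gene, changed by -1.78 ± 0.14 (limma adjusted p = 0.000497) and TYROBP by -0.69 ± 0.13 (limma adjusted p = 0.0202) at 48 h relative to 6 h, and no marker of this list was called at 24 h. NKG7, from a list of 7 T and NK cell markers of which 1 could be tested, had -0.55, 0.70 and 0.82 with IL-6 and -0.73, -0.17 and -0.07 in controls and rose by 0.91 ± 0.18 at 24 h (limma adjusted p = 0.0396), while CD3E and CD2 had no value in any library. The part of these shifts in the changes of the lipid genes was not tested. With the library medians set equal, 20 of the 31 genes were called higher at 24 h, with a median of 0.89, and 7 at 48 h.

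Among the 31 genes, 8 overlap a protein-coding gene that also had 6 values, and 5 have pseudogenes of their name. The overlap is largest for FADS1 with FADS2 and for CYP51A1 (chr7:92084987-92134803) with AKAP9, at 25687 bases on opposite strands. On the same strand, CYP51A1 shares 22628 bases with ENSG00000289027, and EBP shares 6911 bases with ENSG00000286268. The values of these genes are therefore less certain. INSIG1 (chr7:155297776-155310235), LSS (chr21:46188141-46228824), MSMO1 (chr4:165327667-165343164) and SCD (chr10:100347233-100364826), the 4 called at 24 h in every fit that left out 1 library, overlap no protein-coding gene, although SCD has a pseudogene, SCDP1, that was listed in 5 libraries.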

How the data were processed

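RNA-seq values of 6 THP-1 libraries were analysed. RNA was amplified from poly(A) tails with SMART-Seq v4 and tagged with Nextera XT, per the labels' protocols, without strand information. Per the submitters' processing notes the build was GRCh38 (hg38), and for the aligner, counter and normalization the sources used here give nothing. The deposited values are log2 values that the authors centred on each gene, per the file headers a processed signal, with no read counts, so no counting interval is given.

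The ratios between libraries of most genes were those of whole multiples of 1 small step, which recovered a level in an arbitrary unit for 15823 genes (91.0%). The 1565 without one, 14 of the 31 described genes among them, were given the highest recovered level. Those 14 genes thus stood at the top of the variance trend by assignment, and all were among the 22 called at 24 h. The part of this placement in their calls was not tested. Of 1000 decoy genes 131 were matched by accident, so levels served only for the filter (mean of at least 1), the variance trend and 1 alternative. The deposited log2 values of 13558 genes were fitted with limma 3.58.1 (R 4.3.3) with time point and agent as terms, robust shrinkage, a median prior of 7.81 and 2 residual degrees of freedom (1 for the tests of a changing IL-6 effect), and Benjamini-Hochberg adjustment over all genes with a threshold of 0.05. The model was also run on simulated data drawn from its own fitted variances, which cannot show how the calls depend on the variance trend. The IL-6 effect pairs libraries by time, and the time effects use the 2 arms as replicates. No label states separate cultures, and the p-values reflect the spread among these 6 libraries alone.

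Genes and lists were chosen with earlier results of these data known. All described genes are accounted for by pathway step. Every gene past the threshold is named, and for each step values are given for the extremes of the IL-6 effect and the largest time effect. Markers of T and NK cells, B cells, epithelium and fibroblasts and the erythroid and platelet lineages had 2 of 7, 3 of 4, 2 of 8 and 0 of 6 genes with values in all 6 libraries. Alternatives were other library scaling, level filters, log2(level + 1), no variance trend, non-robust shrinkage, fits without 1 library or pair, and no pairing by time.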

Additional observations from a re-analysis of the deposited data

How the results depend on the processing

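The count of lipid synthesis genes called at 24 h against 6 h, 22 of 31, ranged over 5 to 23 when 1 library was left out and was 0 with no variance trend; it lay at 19 to 24 under the other alternatives. The count at 48 h against 6 h, 9, ranged over 0 to 13 when 1 library was left out, and was 3 with no level filter, 3 with non-robust shrinkage and 0 with no variance trend. The count lower at 48 h than at 24 h, 4, ranged over 0 to 7 when 1 library was left out, and was 2 with library medians set equal, 0 with no level filter, 8 with a mean level of at least 10, 0 with no variance trend and 0 with non-robust shrinkage. With no variance trend no gene of the whole table was called for time. The cause of the other changes was not tested. Where 1 library was left out, the lone library of that time was assumed to vary like the others. With library medians set equal, all genes split into 135 higher and 59 lower at 24 h against 6 h (199 and 34 as deposited) and 266 and 277 at 48 h against 6 h (326 and 176). The time point is the pairing of the IL-6 effect; with no replicate block, 0 of the 31 genes were called, as with it. That count was 0 under every alternative run, and so were those of both tests of a changing IL-6 effect. The medians over the 31 genes were also read with library medians set equal and with log2(level + 1). Those of IL-6 minus control at each time, and of 24 h and 48 h minus 6 h in each arm, kept their sign. Each moved by less than 0.225, the typical SD of a difference of 2 libraries for these genes. That margin is wider than the medians of IL-6 minus control at 6 h and 24 h, 0.04 and 0.11. The 14 genes without a recovered level kept their deposited values under log2(level + 1). Of 1786 values of single genes under alternatives, 1569 kept their direction and their side of the threshold, 148 lost the call, 29 gained one, 40 moved and 0 reversed. With 1 library for each agent and time, and depth unknown, small differences between IL-6 and control cannot be resolved.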
